A study of Mus musculus with 8 samples.

Results

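LTR retrotransposon peaks are the accessible regions that the annotation of the deposited table placed inside a long terminal repeat (LTR) element, with the repeat's name, class and family. Of 104981 peaks, 6596 (6.28%) carried the class LTR. All of them lay in intergenic sequence (3687 peaks) or in introns (2909 peaks). They fell into the families ERVL-MaLR (3776 peaks), ERVK (1477 peaks), ERVL (835 peaks) and ERV1 (455 peaks), with 53 peaks under other or uncertain family entries.

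Open chromatin was measured by ATAC-seq, in which a transposase cuts accessible DNA, in microglia, the macrophages that reside in brain tissue. The cells came from the cortex of mice at postnatal day 30 and were sorted by flow cytometry after a Percoll gradient. The groups were 4 mice given interleukin-33 (IL-33) and 4 mice given vehicle, by injection into the cerebral ventricle of 1 side, with tissue taken 4 hours later. Each group held 2 females per the labels, but the columns of the table did not say which mouse they came from, so sex was not used. No strain or genotype was given in the labels used here.

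LTR retrotransposons are remnants of retroviral insertions. A full copy has an internal part that encodes viral proteins between a pair of LTRs, and recombination often leaves a solitary LTR that keeps the former viral promoter and enhancer. ERV1 elements resemble gammaretroviruses, ERVK elements resemble betaretroviruses and include the intracisternal A particles (IAP) that are still mobile in mice, ERVL elements are older, and the ERVL-MaLR group (the MT, ORR1 and MLT1 repeats) consists of elements that lack a retroviral coding region of their own. Most are silenced by DNA and histone methylation, and some solitary LTRs serve as enhancers of host genes in immune cells.

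Some LTR peaks covered the start of a transcript. The promoter table from RefSeq (GRCm38.p6, the assembly that mm10 shares on its primary chromosomes) held 32851 windows, each around the start of a gene. LTR peaks overlapped 55 of these windows, with 53 peaks and 54 genes, and 43 of the peaks held the start itself. Peaks that changed covered at least 100 bases of 11 windows, 4 with a raised and 7 with a lowered peak. The windows below are the 4 with raised peaks and then, of the 7 with lowered peaks, the 3 with the largest falls, so the selection does not show the balance of directions. The windows with smaller falls were those of Gm11454, Gm33701, and Gm40073 and Tmem144, which share 1 peak. The sequences are shown because a changed LTR peak covers part of each, and capitals mark motif matches in the whole window. Motifs were searched on both strands: NF-kB as GGGA and TTCC with 2 bases of any kind between them, AP-1 as TGANTCA, C/EBP as TTGCNNAA, PU.1 as GAGGAAGT, ISRE as GAAA and GAAA with 2 bases of any kind between them, CRE as TGACGTCA and RUNX as TGTGGTTT.
Gm38933: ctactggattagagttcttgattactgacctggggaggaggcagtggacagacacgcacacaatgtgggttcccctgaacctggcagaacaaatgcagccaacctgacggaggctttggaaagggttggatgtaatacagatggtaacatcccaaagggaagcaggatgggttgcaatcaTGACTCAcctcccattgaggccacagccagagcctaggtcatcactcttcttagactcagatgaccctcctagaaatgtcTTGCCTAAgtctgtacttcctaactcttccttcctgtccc
Gm51868: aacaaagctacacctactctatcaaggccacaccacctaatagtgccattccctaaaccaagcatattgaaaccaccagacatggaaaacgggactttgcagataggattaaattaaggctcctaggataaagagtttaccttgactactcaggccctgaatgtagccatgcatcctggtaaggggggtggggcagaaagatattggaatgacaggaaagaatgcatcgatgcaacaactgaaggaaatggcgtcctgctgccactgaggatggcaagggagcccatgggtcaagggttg
Gm40913: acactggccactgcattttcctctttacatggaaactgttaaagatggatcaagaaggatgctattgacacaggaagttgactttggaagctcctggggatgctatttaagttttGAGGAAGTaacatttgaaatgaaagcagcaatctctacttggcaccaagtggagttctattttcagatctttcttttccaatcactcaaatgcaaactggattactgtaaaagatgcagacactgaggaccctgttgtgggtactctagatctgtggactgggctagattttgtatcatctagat
Gm41043: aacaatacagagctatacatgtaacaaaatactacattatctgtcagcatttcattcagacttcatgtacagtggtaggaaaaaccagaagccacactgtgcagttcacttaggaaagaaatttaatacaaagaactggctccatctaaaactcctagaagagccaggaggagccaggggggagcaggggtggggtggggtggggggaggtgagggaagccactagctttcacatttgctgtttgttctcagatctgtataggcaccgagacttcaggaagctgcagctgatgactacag
Gm52520: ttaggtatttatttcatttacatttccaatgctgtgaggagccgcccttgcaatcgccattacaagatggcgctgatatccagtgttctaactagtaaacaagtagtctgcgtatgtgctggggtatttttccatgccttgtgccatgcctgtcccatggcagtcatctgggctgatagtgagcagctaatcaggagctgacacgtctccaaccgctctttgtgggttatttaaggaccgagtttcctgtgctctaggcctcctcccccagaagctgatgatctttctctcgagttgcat
Gm41974: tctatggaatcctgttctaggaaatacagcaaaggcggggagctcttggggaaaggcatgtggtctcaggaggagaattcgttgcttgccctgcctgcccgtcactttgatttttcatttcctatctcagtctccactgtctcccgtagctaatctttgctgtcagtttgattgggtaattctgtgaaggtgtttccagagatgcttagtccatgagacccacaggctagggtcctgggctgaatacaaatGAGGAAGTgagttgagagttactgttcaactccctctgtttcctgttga
Gm35891: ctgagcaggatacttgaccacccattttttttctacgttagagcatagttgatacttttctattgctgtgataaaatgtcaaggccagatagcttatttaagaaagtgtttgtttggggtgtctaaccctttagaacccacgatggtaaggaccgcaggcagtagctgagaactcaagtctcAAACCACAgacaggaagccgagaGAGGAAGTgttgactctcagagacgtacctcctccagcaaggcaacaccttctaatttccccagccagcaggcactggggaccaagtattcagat

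The windows lay at chr11:83604766-83605065 on the minus strand (Gm38933, repeat LTR16E2), chr11:83667107-83667406 on the plus strand (Gm51868, ORR1A4), chr13:37333475-37333774 on the plus strand (Gm40913, MTEa), chr13:101548103-101548402 on the minus strand (Gm41043, LTR33B), chr2:85958031-85958330 on the plus strand (Gm52520, IAPLTR4), chr1:153785549-153785848 on the plus strand (Gm41974, MTEb) and chr3:51128890-51129189 on the minus strand (Gm35891, ORR1D1). All 7 genes shown are predicted genes. The peaks covered 113 to 247 bases of these windows, and each held the start site apart from the peak at Gm51868. The AP-1 letters stand at position 181 and the C/EBP letters at position 261 of the Gm38933 window, counted from 1 at its 5′ end. The PU.1 letters stand at position 116 in Gm40913, 252 in Gm41974 and 206 in Gm35891, which also holds the RUNX letters at 183. The PU.1 letters in Gm40913 lie before the first base of the peak, at position 153, and the other marked letters lie inside the peaks. Gm51868, Gm41043 and Gm52520 held none of the 7 motifs. Of the 55 windows with an LTR peak, 10 held AP-1, 8 PU.1, 6 C/EBP, 5 RUNX, 4 ISRE, 2 NF-kB and 1 CRE letters. Of all 32817 windows that differ in position or strand, 7.81% held AP-1, 3.20% PU.1, 10.8% C/EBP, 1.78% RUNX, 3.43% ISRE, 1.47% NF-kB and 1.79% CRE letters.

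Levels are tags per peak scaled to 10000000 tags per library. Libraries held 35842688 to 43857673 tags. The step of the values taken as 1 read was worth 0.114 to 0.139 scaled tags, which is less than 1 tag scaled by these totals. The floor of 3 such reads was worth 0.342 to 0.418 scaled tags. The libraries differed in the share of their tags that lay in peaks, which was 29.9%, 14.2%, 22.0% and 31.3% in IL-33 libraries 1 to 4, against 26.5%, 27.9%, 20.8% and 26.5% in vehicle libraries 1 to 4. IL-33 library 2 stood apart with the lowest share, and results that rest on it are also given without it. Promoter peaks of microglial markers were found for 8 of 10 genes, with sums of 338.5 to 744.9 tags in IL-33 libraries and 527.2 to 747.1 tags in vehicle libraries. Of the markers of other cells, promoter peaks were found for 1 of 6 of neurons (sums of 5.22 to 16.7 tags in IL-33 and 8.65 to 12.8 in vehicle), 2 of 4 of astrocytes (7.20 to 29.8 and 18.2 to 33.2), 2 of 4 of oligodendrocytes (17.1 to 41.1 and 23.4 to 33.4), 0 of 4 of lymphocytes, 1 of 3 of endothelium (7.31 to 16.8 and 12.2 to 22.6) and 1 of 4 of neutrophils and monocytes (2.59 to 7.78 and 2.11 to 6.50).

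More LTR peaks were raised than lowered after IL-33, in about the same proportion as over all peaks tested. Raised peaks made up 62.2% of the called LTR peaks, 62.7% of those called outside repeats and 63.1% of all called peaks. Among the 5637 LTR peaks that passed a filter on the mean over all 8 libraries, 662 (11.7%) were raised and 402 (7.13%) were lowered at a limma adjusted p of 0.05, against 8.53% raised and 4.99% lowered among all 94480 peaks tested. The nearest class by position, intronic and intergenic peaks outside repeats, had 10.1% raised and 6.04% lowered. The median log2 change was -0.06 over the LTR peaks tested, -0.11 over those outside repeats and -0.14 over all peaks tested. LINE peaks had 14.9% raised and 7.34% lowered, DNA transposon peaks 15.8% and 6.24%, and SINE peaks 9.70% and 4.43%. Whether these shares differ between classes was not tested.

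The raised LTR peaks had a median of 13.6 tags in IL-33 libraries and 3.75 tags in vehicle libraries, and the lowered ones 6.80 tags in IL-33 and 16.8 tags in vehicle. The vehicle median of the raised peaks was below the filter of 4.303 tags, so many of them passed it only through the IL-33 libraries. Of the raised peaks 491, and of the lowered peaks 276, had no overlap between the 4 IL-33 and the 4 vehicle libraries. The matching shares over all called peaks are not given here. Counted without the test, the 4 IL-33 libraries all lay above the vehicle libraries at 573 LTR peaks (10.2%, against 8.06% of all peaks tested and 9.49% outside repeats) and all below at 395 (7.01%, against 5.89% and 6.72%). A change of at least 4-fold on the log2(tags + 1.155) scale was called at 117 raised (2.08%) and 7 lowered (0.124%) LTR peaks, against 1.82% and 0.0953% of all peaks tested and 2.31% and 0.123% outside repeats, so these shares were close to the background. Another 959 LTR peaks had means at or below 4.303 tags and were not tested. In 187 of these the IL-33 libraries all lay above the vehicle libraries, and in 42 all below. Of the 959 peaks, 714 stood only in the authors' IL-33 list of peaks and 224 only in their vehicle list. The shares over all untested peaks are not given here, so these counts are not read as a result about LTR peaks. Without IL-33 library 2 the counts were 1159 raised (20.6%) and 319 lowered (5.66%), beside 17.4% and 5.12% outside repeats. Without IL-33 library 4 they were 530 raised and 620 lowered, the only 1 of 19 settings (the values as deposited and the alternatives to them) in which lowered LTR peaks outnumbered raised ones. The lowered count was 218 when IL-33 library 3 was left out, and 222, 215 and 244 when vehicle library 1, 2 or 4 was. The median log2 change of all peaks tested was -0.14 as deposited, between -0.07 and -0.02 in the rescaled fits, and 0.07 without IL-33 library 2.

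Among the families, ERV1 had the highest share raised, 59 of 386 tested peaks (15.3%), with 24 lowered (6.22%). ERVL-MaLR had 412 of 3209 raised (12.8%) and 213 lowered (6.64%). ERVL had 83 of 726 raised (11.4%) and 52 lowered (7.16%). ERVK had the lowest share raised, 102 of 1271 (8.03%), and 112 lowered (8.81%). The other family entries had 6 raised and 1 lowered of 45 tested. ERV1 was highest and ERVK lowest in the share raised in all 19 settings, and ERVK had the highest share lowered in 18 of them, the exception being the fit without IL-33 library 3. Which of the ERVK counts was larger depended on the setting, with raised peaks ahead in 10 of 19. Median log2 changes were -0.03 in ERVL-MaLR, -0.05 in ERVL, -0.06 in ERV1 and -0.14 in ERVK, beside -0.14 over all peaks tested. In the same order they were 0.21, 0.17, 0.16 and 0.09 without IL-33 library 2 (0.07 over all peaks), -0.18, -0.19, -0.19 and -0.28 without IL-33 library 4 (-0.26 over all peaks), and 0.06, 0.04, 0.04 and -0.05 after median-ratio scaling (-0.05 over all peaks), so their signs depend on the libraries and the scaling. The difference between families was not tested. Without IL-33 library 2 the raised counts were 90 in ERV1, 728 in ERVL-MaLR, 137 in ERVL and 197 in ERVK. The lowered counts in ERV1, ERVL-MaLR, ERVL and ERVK were 12, 116, 34 and 56 without IL-33 library 3, and 41, 337, 70 and 170 without IL-33 library 4. They were 13, 129, 24 and 56 without vehicle library 1, 12, 120, 29 and 54 without vehicle library 2, and 15, 133, 33 and 63 without vehicle library 4. ERV1 had 86 raised and 59 lowered after quantile normalization, and ERVK had 103 and 74 in edgeR with total tags.

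**Figure D1:**
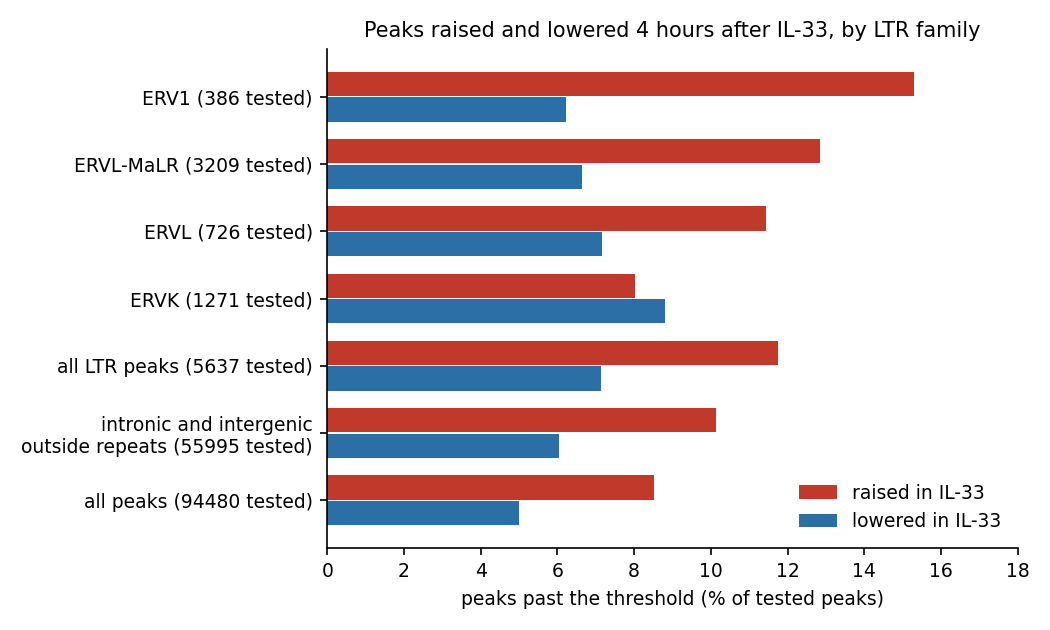
Bars give the percent of tested peaks called raised (red) or lowered (blue) in the 4 IL-33 against the 4 vehicle libraries, by LTR family, for all LTR peaks and for both comparison sets, with the number of tested peaks in brackets. ERV1 has the longest red bar at 15.3%, and ERVK is the family whose blue bar, 8.81%, is longer than its red bar, 8.03%.

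The shares differed with position and level. Raised LTR peaks lay a median of 17.6 kb from the nearest start site and lowered ones 36.3 kb, with 21.5 kb over all LTR peaks. Within 10 kb of a start, 12.6% of LTR peaks were raised and 3.67% lowered, while beyond 100 kb 8.51% were raised and 16.4% lowered. Outside repeats the shares were 10.5% raised and 3.61% lowered within 10 kb, and 9.37% raised and 13.1% lowered beyond 100 kb. The lowered share thus rose with distance outside repeats as well. Beyond 100 kb ERVK was the most lopsided family, with 2 of 135 peaks raised (1.48%) and 26 lowered (19.3%). By level, LTR peaks with a mean under 8 tags had 14.6% raised and 6.11% lowered, and those of 20 tags or more had 8.09% raised and 7.73% lowered. Outside repeats these were 11.8% and 4.98% under 8 tags, and 8.47% and 7.17% at 20 tags or more.

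The authors' lists of peaks follow the same order by construction, since they were called on these libraries. Of the LTR peaks, 1708 stood only in the IL-33 list, 625 only in the vehicle list and 4263 in both. Raised peaks were 434 of 994 tested in the IL-33 list alone, 228 of 4242 in both and 0 of 401 in the vehicle list alone, where 120 were lowered. As shares these were 43.7%, 5.37% and 0% raised, against 41.7%, 5.33% and 0.254% outside repeats, and 29.9% lowered in the vehicle list alone, against 24.02% outside repeats.

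Summed over its peaks, each family was followed as a share of all tags in peaks, which sets libraries with more and fewer tags in peaks side by side. ERV1 peaks took 0.294%, 0.283%, 0.279% and 0.311% in IL-33 libraries 1 to 4, against 0.254%, 0.252%, 0.255% and 0.250% in vehicle libraries 1 to 4. Every IL-33 library lay above every vehicle library. The log2 change was 0.21 ± 0.04 (SE, limma adjusted p = 0.00223 over 21 repeat families of all classes, of which 42.9% were raised and 0 lowered). ERVL peaks took 0.544%, 0.505%, 0.520% and 0.576% in IL-33 libraries, against 0.4997%, 0.490%, 0.488% and 0.487% in vehicle libraries, again without overlap (log2 change 0.12 ± 0.04, limma adjusted p = 0.0360).

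ERVL-MaLR peaks took 2.34%, 2.15%, 2.21% and 2.50% in IL-33 libraries, against 2.15%, 2.12%, 2.10% and 2.09% in vehicle libraries. IL-33 library 2 fell within the vehicle range, and the change did not pass the threshold (log2 change 0.12 ± 0.05, limma adjusted p = 0.0651). Without that library it passed (log2 change 0.15, limma adjusted p = 0.0149). ERVK peaks took 0.876%, 0.803%, 0.816% and 0.922% in IL-33 libraries, against 0.877%, 0.865%, 0.878% and 0.867% in vehicle libraries, with IL-33 libraries on both sides (log2 change -0.03 ± 0.04, limma adjusted p = 0.578). The median change over the 21 families was 0.12, the same as in ERVL and ERVL-MaLR.

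In the IL-33 group the LTR share moved with the share of tags in peaks. The LTR share of in-peak tags was 4.09%, 3.77%, 3.86% and 4.35% in IL-33 libraries 1 to 4, in the same order as their shares of tags in peaks, against 3.81%, 3.77%, 3.75% and 3.73% in vehicle libraries 1 to 4. The part of the in-peak share in these family changes was not tested. On tags as deposited, without division by the tags in peaks, no family passed (limma adjusted p = 0.999 for ERV1 and ERVL). In peaks that stood in both of the authors' lists, the ERV1 change was 0.09 (limma adjusted p = 0.237) and the ERVL change 0.01 (limma adjusted p = 0.956). The ERVL call was also lost after median-ratio scaling (0.11, limma adjusted p = 0.0887) and without IL-33 library 1 or any 1 of the 4 vehicle libraries (limma adjusted p from 0.0521 to 0.0916).

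**Figure D2:**
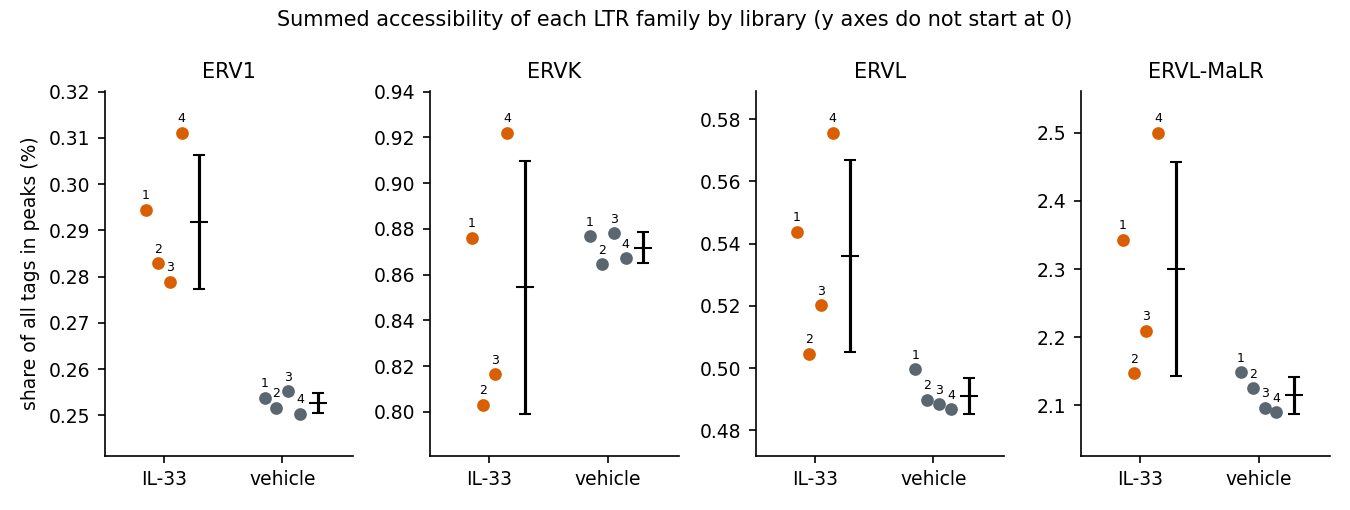
Points give the percent of each library's in-peak tags that lay in peaks of a family, with library numbers above them, IL-33 on the left and vehicle on the right of each panel. Horizontal marks and bars are the mean ± SD of 4 libraries, and y axes differ between panels and do not start at 0. ERV1 and ERVL libraries do not overlap between groups, while ERVK IL-33 libraries 2 and 3 lie below and library 4 above all vehicle libraries.

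The LTR peaks carried 470 repeat names, of which 39 had 30 or more peaks and together 4077 peaks. Summed shares of these 39 names were raised for 18 and lowered for 4 at a limma adjusted p of 0.05, adjusted over 112 names of all repeat classes. Among the 112 names 38.4% were raised and 7.14% lowered, and the median log2 change was 0.14 over the LTR names and 0.11 over all names. On tags as deposited 0 LTR names were raised and 0 lowered, and with peaks of both lists alone 4 were raised and 2 lowered.

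ORR1C2, an ERVL-MaLR name with 62 peaks, changed most. It took 0.0312%, 0.0319%, 0.0282% and 0.0329% of in-peak tags in IL-33 libraries, against 0.0202%, 0.0200%, 0.0210% and 0.0211% in vehicle libraries. The groups were far apart (log2 change 0.59 ± 0.05, limma adjusted p = 1.27e-05), and 13 of its 49 tested peaks were raised (26.5%) and 1 lowered. MLT1A1, with 30 peaks, took 0.0146%, 0.0168%, 0.0142% and 0.0164% in IL-33 libraries, against 0.0108%, 0.0100%, 0.0108% and 0.0117% in vehicle libraries, without overlap (log2 change 0.52 ± 0.07, limma adjusted p = 0.000127). Of the 62 ORR1C2 peaks, 28 stood only in the authors' IL-33 list and 4 only in the vehicle list, and of the 30 MLT1A1 peaks 12 and 2. The lists were called on these same libraries, so the rises of summed shares are not independent of the calling. The next by change were MLT1K (0.36), RMER15-int (0.34), MLT1D (0.32), MTC (0.32), MTB_Mm (0.30) and ORR1D1 (0.28), and the IL-33 libraries lay above all vehicle libraries in each. RMER15-int is the internal part of an ERVL element, and the other 5 are ERVL-MaLR names. Among names with 30 or more tested peaks, the shares of peaks raised were highest in ORR1C2, RMER15-int (20.6%), MTC (20.5%), MLT1D (19.1%) and ORR1B2 (18.9%).

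RMER19B, an ERVK name with 109 peaks, led the names that fell. It took 0.0687%, 0.0617%, 0.0618% and 0.0695% of in-peak tags in IL-33 libraries, against 0.0804%, 0.0750%, 0.0801% and 0.0783% in vehicle libraries. All IL-33 libraries lay below all vehicle libraries (log2 change -0.26 ± 0.05, limma adjusted p = 0.00246), and 19 of its 92 tested peaks were lowered (20.7%) and 5 raised. The other names that fell were RMER6B (log2 change -0.23, limma adjusted p = 0.0363), MLTR11B (-0.19, 0.0281) and MLT1C (-0.17, 0.0493), in each of which the groups overlapped. Of the 4 names, only RMER19B passed without each library in turn (limma adjusted p at most 0.0118), and the count lowered was 2 without IL-33 library 1 and 1 without IL-33 library 3 or vehicle library 1, 2 or 4. RMER6B and MLTR11B belong to ERVK and MLT1C to ERVL-MaLR. The shares of peaks lowered were highest in MLTR11B (20.8%), RMER19B, MTE2b (16.2%), RMER6B (16.1%) and RMER15 (15.4%), the last with 14.1% raised as well.

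The most frequent names did not all move alike. MTD, the largest with 633 peaks, had 13.2% raised and 3.95% lowered of its 531 tested peaks, and its summed share was raised (log2 change 0.16, limma adjusted p = 0.0281). ORR1E, the next with 487 peaks, had 7.16% raised and 8.83% lowered of 419 (log2 change -0.03, limma adjusted p = 0.692). Of the next 6 names, MTC with 260 peaks and ORR1F with 225 were raised in summed share (0.32 and 0.24), and ORR1D2 with 255 peaks (0.03), MTEa with 172 (0.07), ORR1B1 with 140 (0.10) and MTE2b with 115 (0.05) did not pass. MTE2a, with 106 peaks, did not pass either (0.09).

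**Figure D3:**
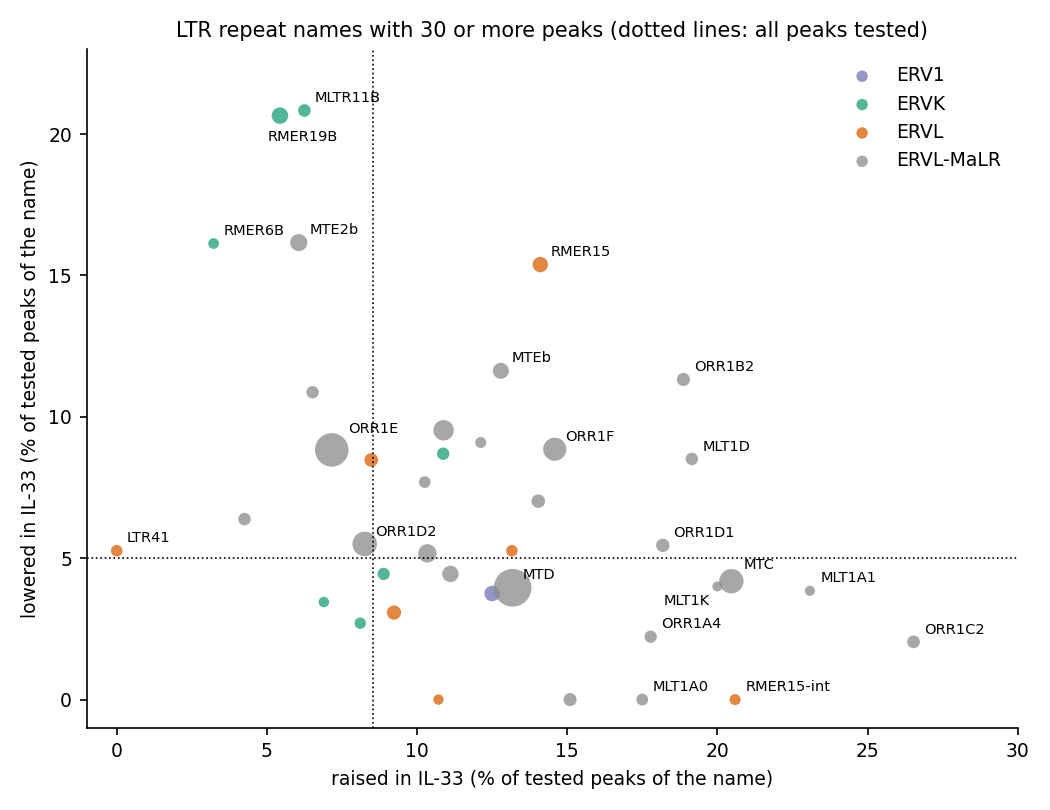
Each point is 1 of the 39 LTR repeat names with 30 or more peaks, placed by the percent of its tested peaks raised (x) and lowered (y) in IL-33, with area growing with the number tested and colour giving the family. Dotted lines mark all peaks tested, 8.53% raised and 4.99% lowered. ORR1C2 stands farthest right, and the ERVK names RMER19B, MLTR11B and RMER6B stand at the upper left.

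**Figure D4:**
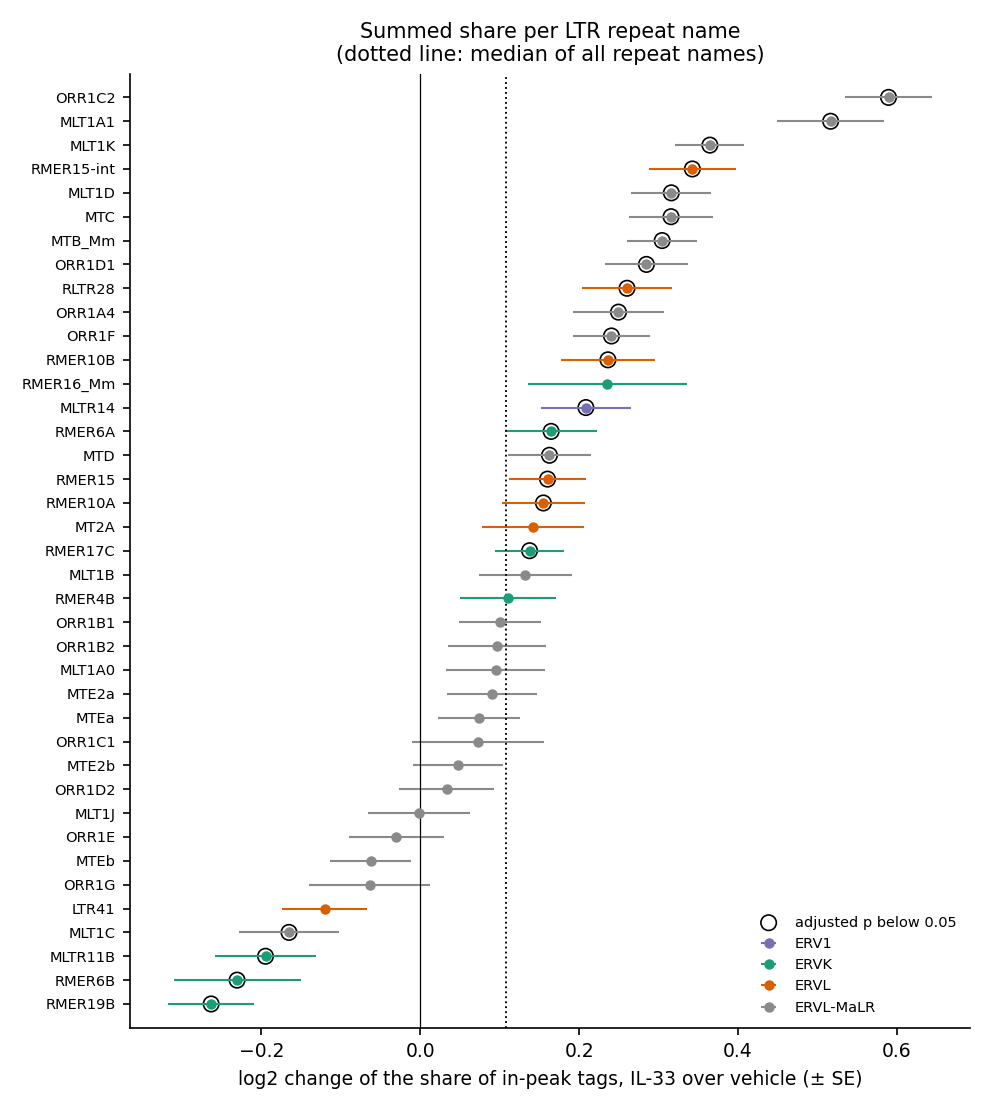
Points give the log2 change (IL-33 over vehicle) of each name's summed share of in-peak tags with its SE, coloured by family, and black rings mark a limma adjusted p below 0.05. The dotted line is the median over 112 repeat names of all classes, 0.11. ORR1C2 is at the top with 0.59 and RMER19B at the bottom with -0.26.

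Groups of related names with fewer peaks were looked at after their values were seen. The RMER19 names together had 145 peaks, of which 7 were raised and 26 lowered of 123 tested (5.69% and 21.1%). Over all peaks tested, 8.53% were raised and 4.99% lowered. Without the RMER19 names ERVK had 95 raised and 86 lowered of 1148 (8.28% and 7.49%). The IAP names had 63 peaks, with 1 raised and 6 lowered of 58 tested (1.72% and 10.3%). The IL-33 mean was the higher in 16 of the 63, and in 658 of the 1332 ERVK peaks without RMER19 names. Internal parts, the names that end in -int, made up 522 LTR peaks (7.91%), with 9.23% raised and 6.08% lowered of 444 tested. The LTR names proper had 11.96% raised and 7.22% lowered of 5193.

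The LTRIS names, which are ERV1 LTRs, had 18 peaks, of which 16 stood only in the IL-33 list. At 16 of the 18 peaks all IL-33 libraries lay above all vehicle libraries, against 8.06% of all peaks tested and 9.49% outside repeats. These are the 16 peaks of the IL-33 list, which was called on these same libraries. Their separation is thus not independent of the calling. The exceptions among the 18 were the LTRIS2 and LTRIS3 peaks near Lilrb4a, which encodes an inhibitory immunoglobulin-like receptor. The LTRIS3 peak had 118.9, 54.5, 84.7 and 134.3 tags in IL-33 libraries, against 73.7, 78.5, 58.6 and 79.4 tags in vehicle libraries, and the groups overlapped. At the other 16 peaks, of the names LTRIS_Mm and LTRIS_Mus, IL-33 means ran from 5.19 to 91.2 tags and vehicle means from 0.357 to 40.8 tags. The highest of these was on an unplaced contig, and at the other 15 no vehicle mean was above 1.34 tags. Of the 18 peaks 9 were tested, and apart from the contig's peak and the pair near Lilrb4a these 6 passed the filter only through the IL-33 libraries. These repeats are young and alike, and how reads that map to several copies were placed is not given in the sources used here, so a peak may hold reads of another copy. Without the LTRIS names ERV1 had 52 raised and 24 lowered of 377 tested peaks (13.8% and 6.37%), beside 12.8% raised in ERVL-MaLR.

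Among single peaks, the largest rises reached more than 4 on the log2 scale. The 10 largest had vehicle means of 0.37 to 3.16 tags, below the filter of 4.303 tags. They passed it only through the IL-33 libraries, so their p-values and the distance between groups describe them and do not count as support. The RLTR28 peak, an ERVL repeat 4.81 kb from the predicted gene Gm13710 (mm10, chr2:84511573-84511787, intergenic), had 94.8, 39.5, 74.5 and 95.1 tags in IL-33 libraries 1 to 4, against 3.71, 1.98, 3.08 and 0.980 tags in vehicle libraries 1 to 4. Every IL-33 library was more than 10 times the highest vehicle library (log2 change 4.41 ± 0.34, SE, limma adjusted p = 5.61e-35). limma gave every peak the same SE of 0.34, so the smallest p-values are not to be read literally. The internal ERVL repeat ERVL-E-int near Poc1b, a centriole protein gene (chr10:99081581-99081942, intergenic), had 105.7, 53.0, 92.0 and 95.6 tags in IL-33 libraries, against 4.73, 2.51, 2.74 and 2.65 tags in vehicle libraries, and the groups were again far apart (log2 change 4.33).

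In ERVL-MaLR the largest rise was an MLT1I repeat in an intron of Rassf4, a gene of the Ras association domain family (chr6:116667478-116667820). It had 57.2, 30.9, 41.0 and 63.6 tags in IL-33 libraries, against 0.510, 1.72, 1.03 and 2.65 tags in vehicle libraries, without overlap (log2 change 4.24). In ERV1 it was an LTRIS_Mus repeat 20.1 kb from Slc31a2, which encodes a copper transporter (chr4:62266189-62266477), with 43.6, 24.6, 33.6 and 42.2 tags in IL-33 libraries, against 1.02, 0, 1.82 and 2.51 tags in vehicle libraries (log2 change 3.99). In ERVK it was an RLTR49 repeat 16.9 kb from 0610005C13Rik (chr7:45591855-45592204), with 61.4, 29.6, 41.8 and 65.9 tags in IL-33 libraries, against 3.20, 6.74, 5.36 and 4.46 tags in vehicle libraries (log2 change 3.03). In all of these families the lowest IL-33 library was IL-33 library 2, and it still lay above every vehicle library.

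An MLT1A0 repeat 9.60 kb from Cd83, a surface protein of activated antigen-presenting cells, had 37.7, 21.1, 32.9 and 38.4 tags in IL-33 libraries, against 3.45, 1.98, 2.96 and 2.09 tags in vehicle libraries, without overlap (log2 change 3.14). The other 5 of the 10 largest rises were an MLT1K repeat in A530050N04Rik (log2 change 4.11), an MTEa repeat in an intron of Ext1, a heparan sulfate polymerase gene (3.82), an MTD repeat in an intron of Rims2, a gene of the synaptic active zone (3.77), an LTRIS_Mm repeat near Rnf180 (3.36) and an LTR16C repeat 106.7 kb from Uaca (3.13). All 10 stood only in the authors' IL-33 list. Genes are named by distance to the start site alone, which does not show that a peak acts on them.

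The falls were smaller, and 6 of the 9 described here lay more than 100 kb from a start site. An MTEa repeat 143.0 kb from D7Ertd443e (chr7:134519400-134520190, intergenic) had 16.2, 12.03, 9.68 and 21.6 tags in IL-33 libraries, against 91.3, 89.0, 68.3 and 87.1 tags in vehicle libraries. All IL-33 libraries were below all vehicle libraries (log2 change -2.46, limma adjusted p = 4.12e-11). An RMER15 repeat near Dock1, an activator of Rac, lay on the same chromosome (chr7:134556127-134556410) and had 16.9, 8.72, 13.8 and 34.6 tags in IL-33 libraries, against 80.5, 66.3, 56.1 and 74.3 tags in vehicle libraries, without overlap (log2 change -1.99).

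RMER19 repeats made up 4 of these 9 falls. The RMER19B repeat 885.3 kb from Pcdh9, a protocadherin gene (chr14:94775897-94776161), had 5.99, 0.830, 4.2 and 5.96 tags in IL-33 libraries, against 23.8, 20.2, 18.9 and 29.6 tags in vehicle libraries, without overlap (log2 change -2.31). The RMER19B repeat near Pak6, a p21-activated kinase gene (chr2:118646786-118647088), had 25.9, 9.20, 15.7 and 29.0 tags in IL-33 libraries, against 91.2, 91.0, 60.3 and 74.1 tags in vehicle libraries (log2 change -2.03). An ORR1A3 repeat near the same gene (chr2:118650741-118651005) fell with it (log2 change -2.06). The RMER19A repeats near Ifitm10 and Cdh26 had log2 changes of -2.05 and -1.995. The remaining falls were an LTR80A repeat in an intron of Immp2l (-2.02) and an RLTR44A repeat 122.8 kb from Dmac1 (-1.997). In ERV1 the largest fall was a MER34A1 repeat 60.3 kb from Kl, with 3.31, 2.71, 4.84 and 1.65 tags in IL-33 libraries, against 16.8, 18.4, 11.7 and 14.8 tags in vehicle libraries, without overlap (log2 change -1.99). The IL-33 means of the peaks near Kl (3.13 tags), Ifitm10 (3.12) and Pcdh9 (4.245) were below the filter of 4.303 tags. These peaks passed it only through the vehicle libraries. The distance between their groups thus describes them and does not count as support.

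**Figure D5:**
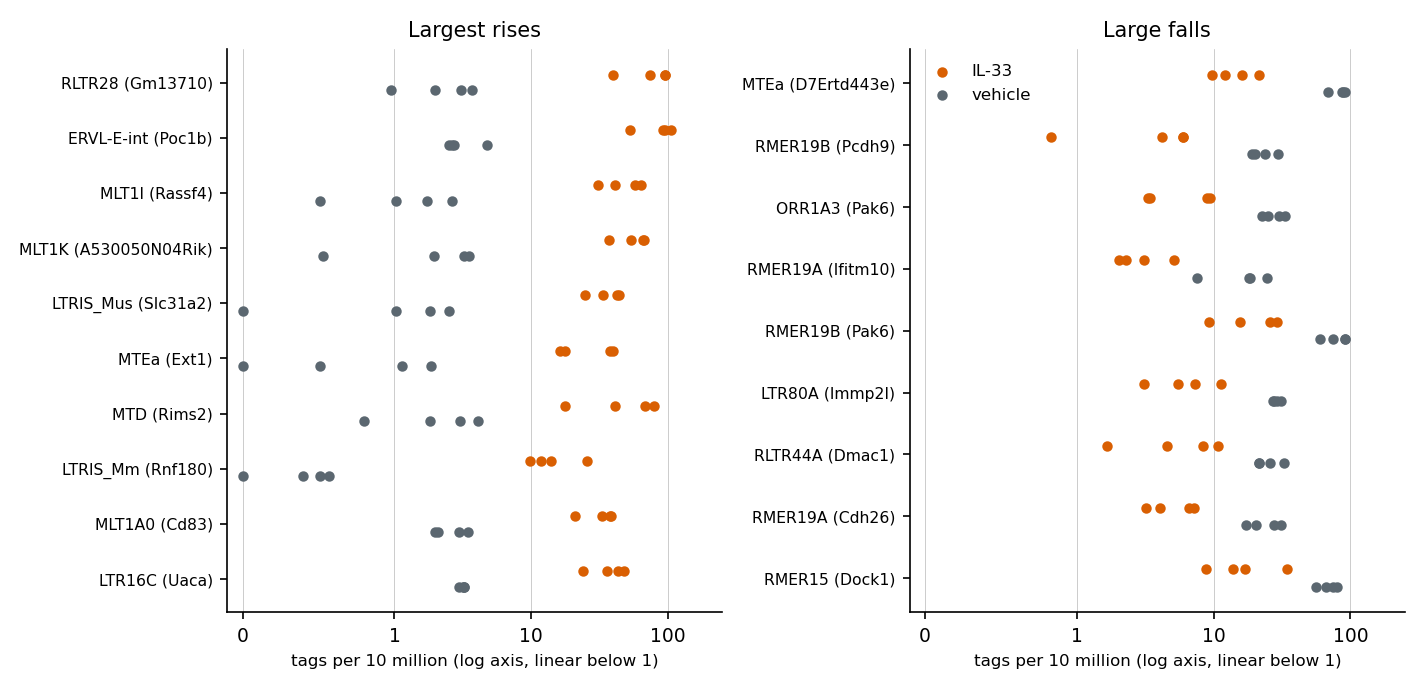
Tags per 10000000 at the 10 LTR peaks with the largest rises (left) and at 9 with large falls (right), 1 point per library, IL-33 in orange above vehicle in grey, with the nearest gene in brackets. The x axis is logarithmic above 1 tag and linear below it. At each of the 19 peaks the IL-33 points stand on 1 side of all vehicle points.

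The most open LTR peaks in vehicle libraries did not pass the threshold on the values as deposited. An ORR1D2 repeat in an intron of Dnajc3, a chaperone gene of the endoplasmic reticulum, had 235.6, 103.3, 162.5 and 236.4 tags in IL-33 libraries, against 215.8, 227.2, 187.4 and 231.2 tags in vehicle libraries, and the groups overlapped (limma adjusted p = 0.684, log2 change -0.29). Another 7 peaks that led their families in vehicle libraries were an MTD repeat at Lpcat1 (log2 change 0.07), LTR50 repeats at Kif16b (-0.74) and Lrpprc (-0.37), an RLTR44B repeat at Hapln1 (-0.18), an RLTR45 repeat at Gm35496 (-0.36), a MER89-int repeat at Tpd52 (0.29) and a MER57D repeat at Trim33 (-0.04). All 8 overlapped between groups. Of 18 alternatives, the Kif16b peak passed in 6, the Tpd52 peak in 5, and the Lpcat1, Lrpprc and Dnajc3 peaks in 2 each, always with the sign as deposited. The sign turned, without passing, in 9 at Trim33, 3 at Lpcat1 and 2 at Hapln1.

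Some genes had several LTR peaks that changed together, and these were picked after their values were seen. Those described are genes of immune cells or microglia, but other genes had as many changes. At Tm9sf3 4 of 4 tested LTR peaks were raised, at Rps20 and LOC102632231 4 of 6, and at Prex1 4 of 8, while at Cdh26 4 of 7 were lowered. Whether changed LTR peaks gather at immune genes was not tested. At Lyn, a Src-family kinase of myeloid cells, all 4 LTR peaks were raised, and they carried the names ORR1F, RMER17C, ORR1G and MTEb. Their sum was 149.8, 67.2, 106.6 and 157.6 tags in IL-33 libraries, against 47.2, 49.8, 29.5 and 44.2 tags in vehicle libraries, without overlap. At Ccl12, a chemokine gene, 3 of 4 LTR peaks were raised, 1 ORR1E and 2 RMER17A2 repeats that lay 3.61 to 4.73 kb from the start site. Their levels in IL-33 libraries ran from 8.02 to 21.5 tags, and in vehicle libraries from 0.770 to 3.63 tags. The vehicle levels were below the filter of 4.303 tags, so these 3 peaks passed it only through the IL-33 libraries. At Lcp2, the gene of an adaptor protein of immune receptors, 3 of 5 were raised, and at Ly86, which encodes a partner of the receptor Cd180, 4 of 11, of which 9 were tested.

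At Siglech, which encodes a sialic acid-binding lectin of microglia, the change went the other way. Its promoter signal averaged 58.0 tags in IL-33 and 130.7 tags in vehicle libraries, so lower values were not limited to LTR peaks. In an RLTR14-int stretch of 4.06 kb, 5.41 to 9.16 kb from the start site, lay 7 peaks, of which 6 were tested and 5 lowered. The sum of the 7 was 37.1, 24.8, 26.8 and 30.7 tags in IL-33 libraries, against 77.4, 82.6, 68.0 and 76.1 tags in vehicle libraries, and each of the 7 had all IL-33 libraries below all vehicle libraries. They held 7 of the 14 RLTR14-int peaks in all and, being neighbours in 1 element, do not count as separate cases. Over all LTR peaks, 332 had the next LTR peak within 1 kb, 106 of these under the same name.

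The 49 tested LTR peaks on promoter windows included 5 raised (10.2%) and 7 lowered (14.3%), against 8.53% and 4.99% of all peaks tested. The LTR16E2 peak at the start of Gm38933, whose nearest gene in the deposited table is Ccl6, had 7.01, 8.72, 6.37 and 9.25 tags in IL-33 libraries, against 0.770, 4.36, 0.230 and 0.700 tags in vehicle libraries (log2 change 1.96). The ORR1A4 peak at Gm51868, 4597 bp from Ccl4, had 11.7, 5.07, 9.55 and 9 tags in IL-33 libraries, against 0.260, 0, 1.25 and 0.140 tags in vehicle libraries (log2 change 2.69). Ccl6 and Ccl4 encode chemokines, and at both peaks the groups did not overlap. The vehicle means of these peaks, 1.515 and 0.4125 tags, were below the filter of 4.303 tags, so both passed it only through the IL-33 libraries. The MTEa peak at Gm40913, 11.6 kb from Ly86, had 61.8, 37.5, 60.2 and 90.6 tags in IL-33 libraries, against 35.2, 29.1, 21.1 and 33.1 tags in vehicle libraries, without overlap (log2 change 1.01, limma adjusted p = 0.0251). The LTR33B peak at Gm41043 was raised as well (log2 change 1.84). Of the lowered peaks, the IAPLTR4 peak at Gm52520 had 5.86, 3.30, 3.44 and 7.23 tags in IL-33 libraries, against 15.5, 14.5, 13.7 and 18.3 tags in vehicle libraries, without overlap (log2 change -1.49). The MTEb peak at Gm41974 (log2 change -1.41) did not overlap between groups either, while the ORR1D1 peak at Gm35891 did (log2 change -1.06). The sequences printed above are the windows of these 7 peaks.

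Genes known to silence or restrict LTR elements were followed at their promoters. Of 22 such genes 20 had promoter peaks, and of these 31 peaks 3 were raised and 0 lowered by limma (3 had an unadjusted p under 0.05), against 2.45% raised and 1.28% lowered of all promoter peaks tested. Leaving out each library in turn gave 3 raised and 0 lowered every time, and on recovered reads edgeR with TMM and DESeq2 each gave 4 raised and 1 lowered. The median log2 change was -0.19 in the list and -0.21 over all promoter peaks. The raised peaks were at Uhrf1, which reads hemimethylated DNA for maintenance methylation, and at Apobec3, a cytidine deaminase that restricts retroviruses. The Uhrf1 peak had 57.9, 29.0, 38.7 and 50.1 tags in IL-33 libraries, against 17.9, 20.9, 15.5 and 13.4 tags in vehicle libraries, without overlap (log2 change 1.29, limma adjusted p = 0.00209). A second Uhrf1 promoter peak had a log2 change of -0.23. The raised Apobec3 peaks averaged 7.14 ± 1.94 and 7.09 ± 0.748 tags in IL-33 libraries, against 1.52 ± 0.915 and 2.30 ± 0.803 tags in vehicle libraries (SD, n = 4 each). Both had means over all 8 libraries, 4.33 and 4.69 tags, little above the filter of 4.303 tags, which they passed only through the IL-33 libraries, so these 2 of the 3 raised calls do not count as support. The strongest Apobec3 peak had 69.955 tags in IL-33 and 64.8 tags in vehicle libraries (log2 change 0.09). Trim28, Setdb1, Dnmt1 and Zfp809, which silence endogenous retroviruses through histone or DNA methylation, had log2 changes from -0.50 to -0.08 at their 6 promoter peaks, none past the threshold.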

How the data were processed

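Open chromatin was profiled by ATAC-seq in 8 libraries of sorted cortical microglia, 4 from IL-33 mice and 4 from vehicle mice. Per the file headers, the authors counted tags with HOMER over merged reproducible peaks (mm10) and kept no more than 3 per position. The deposited values are a signal, tags per peak scaled to 10000000 tags per library. The deposited peak score of each merged peak was not used in any test. Repeat names, nearest genes and list membership are those of the deposited table. Bowtie2, HOMER and DESeq2 are named, per the submitters' processing notes. Tool versions, read shifting, duplicate removal and the placing of reads with several matches, which bears on young repeats, are not given in the sources used here.

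Columns name the group but not the mouse, so they were used as 4 replicates per group, and 0 other columns were left aside. Every value (100%) was a whole multiple of 1 read within 0.006 tags. Peaks in the lowest 10% of means (at or below 4.303 tags) were left out. The main test was limma 3.58.1 (R 4.3.3) on log2(tags + 1.155) over 94480 peaks, two-sided, with Benjamini-Hochberg adjustment over all of them and a threshold of 0.05. The pseudocount is 10% of the median peak mean of 11.55 tags, and log2 changes on this scale understate the change of weak peaks. Family and name sums were tested in limma as log2 of the percent of in-peak tags, over the 21 families and 112 names of all repeat classes with 30 or more peaks. The script was tested on simulated data. In the peak fit limma gave every peak the same SE, so its p-values rest on a spread between mice pooled over all peaks. They do not measure the spread at a single peak. In the family and name fits the SE differed between features. Intervals of counting error are not given because replicates were used.

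Alternatives were median-ratio scaling, equal sums, quantile normalization, pseudocounts of 0.5 and 5 tags, no filter, limma with a trend, edgeR 4.0.16 and DESeq2 1.42.0 on recovered reads, peaks of both lists, equal weights, minimums of 10 and 60 peaks per name, and leaving out each library. Named peaks were, among peaks past the threshold without overlap between groups, the 10 largest rises and falls and the largest of each family, and the 2 highest vehicle means per family. Of the falls, 1 is not reported here. Named repeat names were the 10 with most peaks, the 5 highest shares raised and lowered, and up to 10 past the threshold. The members, lists and rules were chosen with earlier results of these data known. No genome was used, so motifs were searched in promoter windows from RefSeq (GRCm38.p6) in place of the peaks planned.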

Additional observations from a re-analysis of the deposited data

Results flagged for a closer look

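In 148 groups of 4 libraries, the gap between the lowest or highest library and its nearest neighbour was set against the range of the group, and 5 groups passed Dixon's 95% critical value for 4 libraries. Chance gives about 1 in 20 groups. All 5 were vehicle groups. In the summed share of in-peak tags, RMER15 had a ratio of 0.868, with vehicle library 1 high at 0.0474%, RMER17C a ratio of 0.835, with vehicle library 4 low at 0.0235%, and MLT1A0 a ratio of 0.862, with vehicle library 4 low at 0.0220%. At the ERVL-E-int peak near Poc1b the ratio was 0.896, with vehicle library 1 high at 4.73 tags. At the LTR16C peak near Uaca it was 0.84, with vehicle library 3 low at 2.96 tags.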

How the results depend on the processing

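No paired analysis was possible because the groups share no mouse numbers and the columns do not name the mouse. LTR peaks raised (662 as deposited) were 1131 after median-ratio scaling, 1155 with equal sums, 1233 in edgeR with TMM and 1279 in DESeq2, and LTR peaks lowered (402) were 686, 659, 695 and 740 there and 861 after quantile normalization. In the same 4 settings raised and lowered peaks were 92 and 45, 93 and 42, 100 and 42, and 106 and 47 in ERV1, 180 and 188, 185 and 179, 202 and 186, and 212 and 196 in ERVK, 140 and 79, 144 and 75, 147 and 81, and 151 and 86 in ERVL, and 711 and 370, 725 and 359, 775 and 382, and 801 and 407 in ERVL-MaLR. Lowered peaks after quantile normalization were 59 in ERV1, 242 in ERVK, 92 in ERVL and 464 in ERVL-MaLR. ERV1 had 15 lowered with a pseudocount of 5 tags, and ERVK 74 in edgeR with total tags. Without each library in turn, raised and lowered peaks ran from 516 to 1159 and 215 to 620 in all LTR peaks, 49 to 90 and 12 to 41 in ERV1, 70 to 197 and 54 to 170 in ERVK, 67 to 137 and 24 to 70 in ERVL, and 317 to 728 and 116 to 337 in ERVL-MaLR.

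Summed shares (log2 change) were 0.0856 in ERV1 and 0.00402 in ERVL on tags as deposited, 0.0950 and 0.0132 in peaks of both lists, and 0.109 in ERVL after median-ratio scaling. In ERVL-MaLR the change was 0.21 with each peak weighted alike (limma adjusted p = 0.000964). Without each library they ran from 0.175 to 0.227 in ERV1, 0.0897 to 0.153 in ERVL, 0.0774 to 0.151 in ERVL-MaLR and -0.0684 to -0.00195 in ERVK. LTR names raised and lowered were 0 and 0 on tags as deposited, 4 and 2 in peaks of both lists, 46 and 21 at 10 or more peaks per name, and 10 and 1 at 60 or more. With each peak weighted alike 30 were raised. Without each library they ran from 13 to 24 and 1 to 5. RMER15 turned to -0.0712 in peaks of both lists and ORR1G to 0.148 with each peak weighted alike. The cause was not tested. Of 378 values under alternatives of the 21 named peaks past the threshold, 0 lost it and 0 turned sign. These peaks were picked as the largest changes without overlap between groups, so this outcome follows largely from the choice and does not count as support. Of 144 values of the 8 named peaks not past the threshold, the most open ones in vehicle libraries, 17 newly passed and 14 others turned sign without passing. Of 527 values of repeat names, 86 no longer passed, 19 newly passed and 2 reversed. With 4 libraries a group, the SE of 0.34 at each peak limits what single peaks can show.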
